A study of Mus musculus with 6 samples.

Results

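Germ line genes are transcribed in developing and adult germ cells and are mostly off in somatic tissues, where many of their CpG-rich promoters carry DNA methylation. 9 such genes, Dazl, Ddx4, Stra8, Tdrd12, Mael, Sycp3, Taf7l, Tex101 and Hormad1, were followed in mouse embryonic stem (ES) cells. Members were all probe sets whose only gene symbol in the array's probe-to-gene table is 1 of these names. This gave 10 probe sets, 2 for Dazl and 1 for each of the other genes, of 34945 probe sets with a single symbol, which stand for 18193 genes. Methylation itself was not measured, and the levels below do not show all 9 genes as silent.

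Total RNA of 6 cultures was hybridized to Affymetrix mouse whole-genome arrays, 1 array per culture. All cultures came from ES cells of the line EBRTcH3 that carry a FLAG-tagged human GTF2IRD2 coding sequence, a gene of the TFII-I family, in the ROSA26 locus. 3 clones, A3, A4 and A5, were each measured after 24 hours without tetracycline, which switches the promoter on (induced), and at 0 hours, with tetracycline in the medium (uninduced). The cells were kept undifferentiated in medium with leukemia inhibitory factor, and both groups carry the transgene, so that no array shows cells without it. Each clone is the offspring of 1 selected colony, and each has 1 array per condition. No probe set was used here to measure the human transgene, so the strength of the induction was not checked in these arrays. The authors state that the longest annotated version was cloned. However, the GTF2IRD2 insert they print is far shorter than those of the other TFII-I family genes. Whether the cells make the full-length factor is not known here.

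In the mouse, germ line genes switch on in steps. Primordial germ cells reach the gonad, lose most of their promoter methylation there and then start to transcribe Dazl, Ddx4 and other genes needed for germ cell development, meiosis and the silencing of transposons. In ES cells part of this set is held down by DNA methylation and part by repressor complexes that contain Max, Mga and E2f6, which bind the E-box CACGTG and the E2F motif. Cultured ES cells are nevertheless known to transcribe some germ line genes at a low level.

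The promoters of the 9 genes are shown first because DNA methylation acts on their CpG dinucleotides. RefSeq windows of 250 bases before the annotated start (GRCm38.p6) matched all 9 genes. The number of CpG dinucleotides in that window was 31 in Ddx4, 20 in Dazl, 19 in Hormad1, 18 in Mael, 14 in Tex101, 14 in Taf7l, 12 in Sycp3, 6 in Tdrd12 and 5 in Stra8. The median was 14, against 6 over all 27025 genes with a window. Tdrd12 and Stra8 thus had the fewest CpG in these windows. The windows of Stra8 and Ddx4 lie wholly inside longer annotated transcripts of these genes. Those of Tdrd12 and Taf7l do so in part. The counts thus need not describe the bases before the gene. The following 5 windows show a pair with both motifs (Sycp3 and Hormad1) and a gene in the range of silent genes (Tex101). They also show a pair whose clone differences ran opposite ways (Tdrd12 and Mael). Stra8, with 5 CpG, ran the same way as Mael. Whether the number of CpG goes with the direction was not tested. Each is written 5′ to 3′ on the gene's strand with CpG in capitals, so that an E-box reads caCGtg. For Tdrd12 the window of its other listed start is shown, cut to the 210 bases before the annotated gene, which hold 2 CpG.
Sycp3 (chr10:88459337-88459586, plus strand): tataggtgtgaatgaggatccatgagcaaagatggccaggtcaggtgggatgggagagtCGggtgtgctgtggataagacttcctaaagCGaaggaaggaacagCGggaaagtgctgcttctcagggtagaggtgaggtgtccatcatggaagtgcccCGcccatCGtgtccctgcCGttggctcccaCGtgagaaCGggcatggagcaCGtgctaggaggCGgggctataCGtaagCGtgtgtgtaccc
Hormad1 (chr3:95559427-95559676, plus strand): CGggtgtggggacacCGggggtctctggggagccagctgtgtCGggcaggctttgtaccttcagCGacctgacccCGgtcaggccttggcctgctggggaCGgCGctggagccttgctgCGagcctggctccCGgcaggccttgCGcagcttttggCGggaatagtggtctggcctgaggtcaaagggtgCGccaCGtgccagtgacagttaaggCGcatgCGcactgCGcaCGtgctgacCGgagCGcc
Tdrd12 (chr7:35537785-35537994, minus strand): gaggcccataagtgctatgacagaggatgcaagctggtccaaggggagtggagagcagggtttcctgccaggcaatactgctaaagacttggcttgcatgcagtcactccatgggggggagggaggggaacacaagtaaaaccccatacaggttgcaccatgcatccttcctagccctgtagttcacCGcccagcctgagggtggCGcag
Mael (chr1:166238745-166238994, minus strand): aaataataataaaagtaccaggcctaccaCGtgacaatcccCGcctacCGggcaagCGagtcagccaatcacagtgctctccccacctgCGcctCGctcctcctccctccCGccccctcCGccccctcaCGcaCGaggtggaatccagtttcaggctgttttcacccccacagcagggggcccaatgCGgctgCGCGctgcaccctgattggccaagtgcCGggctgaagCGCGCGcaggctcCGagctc
Tex101 (chr7:24672051-24672300, minus strand): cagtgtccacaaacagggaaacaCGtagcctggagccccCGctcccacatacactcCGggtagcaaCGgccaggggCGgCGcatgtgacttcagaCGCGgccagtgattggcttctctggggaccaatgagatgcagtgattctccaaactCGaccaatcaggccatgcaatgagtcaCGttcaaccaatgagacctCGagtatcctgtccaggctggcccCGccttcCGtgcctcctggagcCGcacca

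The E-box CACGTG, which reads the same on both strands, was found in 5 of the 9 windows. It began 223 bases before the start in Mael, 57 and 20 bases before it in Hormad1, 64 and 43 in Sycp3, 29 in Ddx4 and 49 in Taf7l. The same 6 letters are in 6.05% of all windows and in 9.88% of the 9143 windows with at least 12 CpG. The E2F motif GCGGGAA, searched on both strands, was found in 3 of 9 (Hormad1, Sycp3 and Ddx4), against 3.84% of all windows and 8.83% of the CpG-rich ones. These 3 genes hold both motifs without overlap, which 0.326% of all windows and 0.787% of the CpG-rich windows do. The windows of Stra8, Tdrd12, Dazl and Tex101 hold neither string of letters. A match describes the letters and does not show a bound site. The windows of Ddx4 and Stra8 lie inside longer annotated transcripts of the same genes, and those of Tdrd12 and Taf7l do in part.

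Levels are log2 values from robust multiarray average (RMA), on which a step of 1 is 2-fold. RMA gives no call of presence. As a rough band for silent genes, the means of 55 probe sets of 32 genes of differentiated tissues, such as albumin and insulin, were used. Their 95th percentile was 5.78. Probe sets differ in how strongly they bind, so a level above this band says only that the signal was higher than that of most silent genes. Of the members, 8 probe sets of 7 genes lay above it, as did 39.7% of all probe sets. Taf7l and Tex101 lay within it.

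Sycp3, a component of the axis of meiotic chromosomes, had the highest member mean, 9.18 over the 6 arrays. Its levels were 9.09, 9.09 and 9.34 in induced A3, A4 and A5, against 9.20, 9.05 and 9.29 in uninduced A3, A4 and A5. The groups overlapped, and both A5 arrays were above the other 4. Sycp3 stood above 89.1% of all probe sets.

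Tdrd12, a Tudor domain protein of the piRNA pathway, averaged 8.72. It had 9.27, 8.50 and 8.43 in the induced clones A3, A4 and A5, and 9.17, 8.61 and 8.38 in the same clones uninduced. Both A3 arrays were higher than the other 4, whether induced or not.

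Ddx4 (mouse vasa homologue), an RNA helicase of germ cells, averaged 7.95. Its levels were 7.90, 7.85 and 8.15 in induced A3, A4 and A5, against 7.88, 7.70 and 8.23 uninduced. The A5 arrays were the highest in each group.

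Mael, which acts in transposon silencing by piRNAs, had 7.08, 7.61 and 7.73 in induced A3, A4 and A5, against 7.22, 7.47 and 7.62 uninduced. Stra8, the retinoic acid-responsive gene needed for entry into meiosis, had 6.98, 7.46 and 7.76 in induced A3, A4 and A5, against 7.16, 7.55 and 7.62 uninduced. Both genes were lowest in the A3 arrays and highest in the A5 arrays.

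Dazl, an RNA-binding protein that licenses germ cells for gametogenesis, was read by 2 probe sets. Probe set 1419542_at had 6.03, 6.41 and 6.57 in induced A3, A4 and A5, against 6.25, 6.44 and 6.64 uninduced. Probe set 1449502_at had 6.34, 6.52 and 6.88 in induced A3, A4 and A5, against 6.70, 6.60 and 6.69 uninduced. The first was lowest in both A3 arrays. In the second the clone means had the same order, but the uninduced A3 array was the second highest of the 6.

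Hormad1, a protein of unsynapsed meiotic chromosome axes, was closest to the band with a mean of 5.93. It had 5.93, 6.13 and 5.90 in induced A3, A4 and A5, against 5.81, 5.91 and 5.92 uninduced. Against the highest of the silent genes, Ttr with 6.09, Hormad1 was inside the range, and 7 probe sets of 6 genes were left above it.

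Taf7l, a germ cell paralogue of the transcription factor subunit Taf7, and Tex101, a cell-surface glycoprotein of germ cells, were within the band. Taf7l had 4.73, 4.60 and 4.67 in induced A3, A4 and A5, against 4.82, 4.58 and 4.82 uninduced. Tex101 had 4.51, 4.32 and 4.26 in induced A3, A4 and A5, against 4.34, 4.48 and 4.34 uninduced. All 12 values were below 5.78. The Taf7l window holds 14 CpG and an E-box and that of Tex101 14 CpG and no E-box. Whether the number of CpG goes with the level was not tested.

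In order of mean, the members ran Sycp3, Tdrd12, Ddx4, Mael, Stra8, Dazl, Hormad1, Taf7l and Tex101. Neighbours in this order were not tested against each other, since their probe sets differ in affinity. Mael at 7.45 and Stra8 at 7.42 differed by less than the SD between the 3 induced arrays of either, 0.34 and 0.39.

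**Figure D1:**
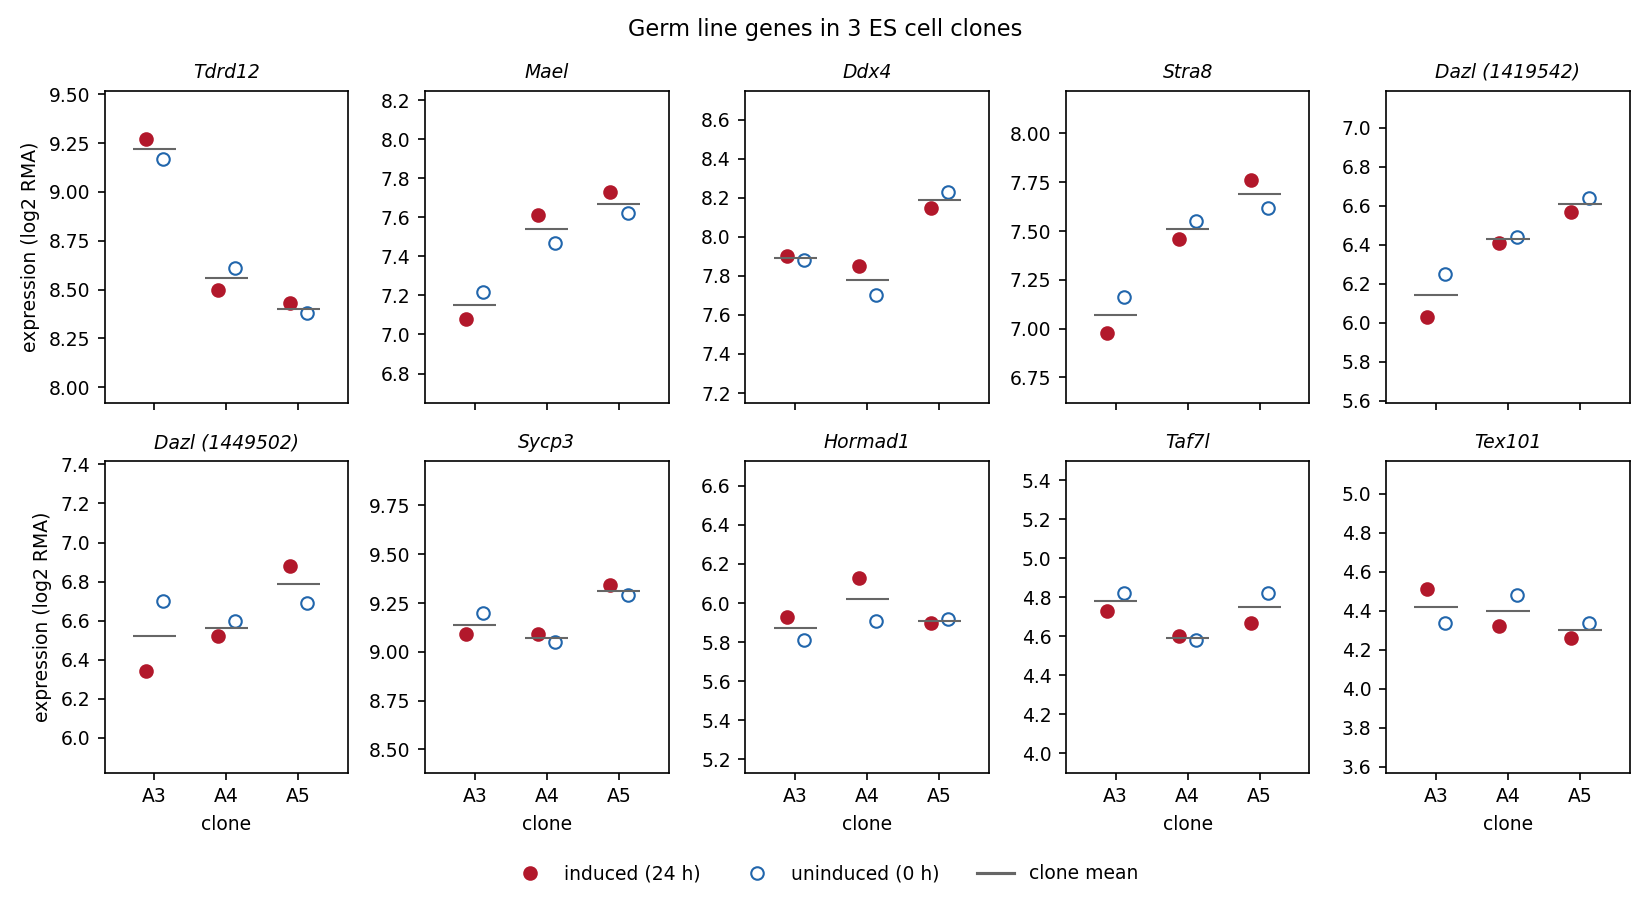
Log2 RMA expression (y axis, each panel spanning 1.6 units) of the 10 probe sets in clones A3, A4 and A5 (x axis). Filled points are induced arrays, open points uninduced arrays and lines the clone means. Tdrd12 is near 9.2 in both A3 arrays and between 8.38 and 8.61 in the other 4, whereas Mael and Stra8 are lowest in A3.

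Other germ line genes were read in the same way. Of a list of 23 further genes with methylated promoters in somatic cells, 19 were measured by 22 probe sets. Above the silent band lay 7 of these probe sets, of 7 genes, against 39.7% of all probe sets. They were Tex19.1 (mean 9.85), Piwil2 (7.74), Syce1 (7.43), Cyct (7.43), Sohlh2 (6.79), Gpat2 (6.19) and Mov10l1 (6.16). Of 16 probe sets of 14 genes of meiotic recombination and chromosome axes, 4 lay above this band. They were of Syce2 (10.76), Tex14 (8.14), Stag3 (6.39) and Msh5 (5.87). The other probe set of Msh5 averaged 4.90, within the band. Median levels were 7.02 for the members, 5.24 for the other germ line genes and 5.15 for the meiosis genes, against 5.05 for all probe sets. The lists were not tested against each other.

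The cultures carried the marks of ES cells. List means took the brightest probe set of each gene. The mean level of 10 ES cell markers, among them Pou5f1 and Nanog, was 11.80 to 11.85 in each array. Of 14 probe sets of fibroblast markers, 1 lay above the band (Thy1, mean 6.50). The list, by the brightest probe set of each gene, averaged 4.47 to 4.55. The 2 probe sets of Col1a1 had means of 3.71 and 3.92, and those of Col3a1 2.29 and 2.56.

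**Figure D2:**
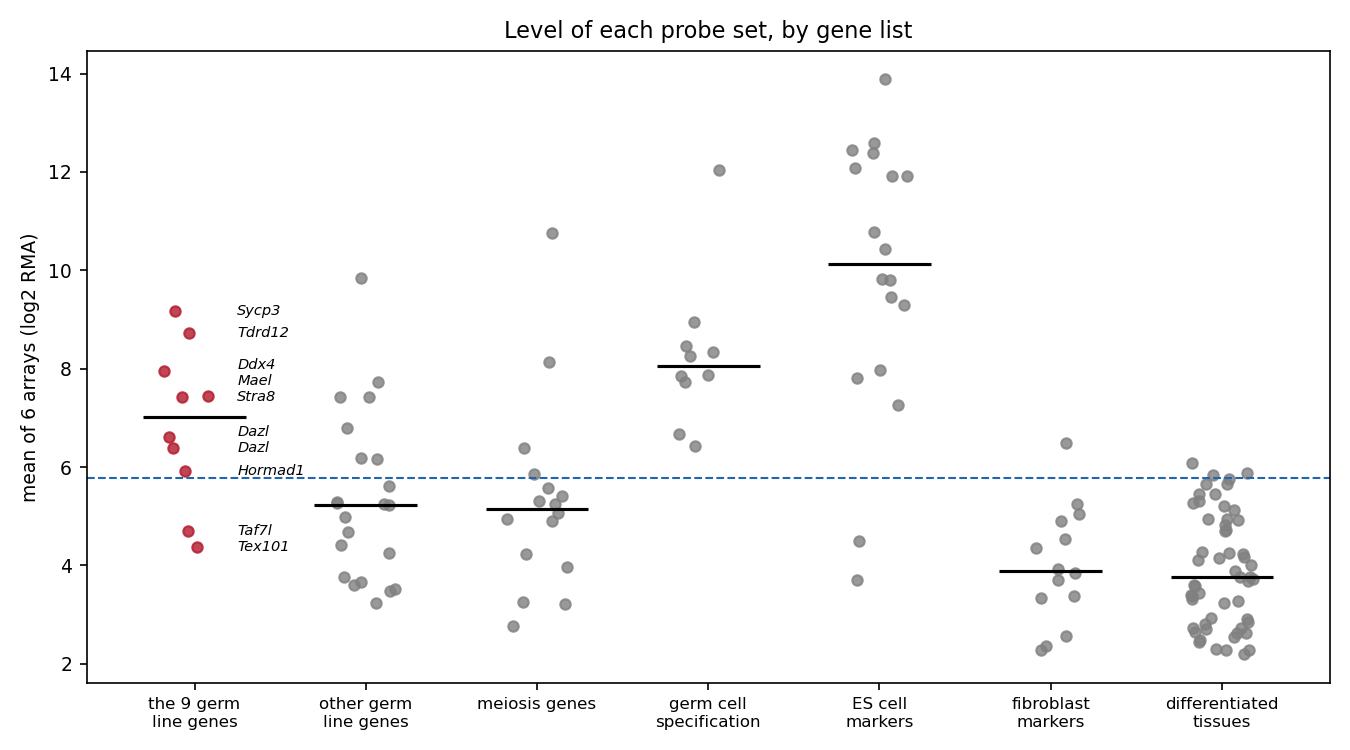
Mean log2 RMA level over the 6 arrays (y axis) of each probe set in 7 gene lists (x axis), with the list median as a black line. The dashed line is the 95th percentile of the differentiated-tissue list, 5.78. The members Taf7l and Tex101 lie below it and the other 7 genes above it.

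The first comparison asked whether 24 hours of induction changed these genes. None of the 10 probe sets passed in limma's test over all 45037 probe sets, where an adjusted p under 0.05 was the threshold (adjusted p of 1 for each member), and 0% of all probe sets passed. At an unadjusted p under 0.05 there were 0 members and 1404 of all probe sets. With the clone as a replicate block, 0 probe sets passed as well, and the lowest adjusted p of a member was 0.874.

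Mean differences of the members, induced minus uninduced, ran between -0.11 and 0.10. Dazl probe set 1419542_at had the lowest, -0.11 ± 0.15 (SE), with 6.34 ± 0.28 in induced and 6.45 ± 0.20 in uninduced arrays (SD, n = 3 each). Hormad1 had the highest, 0.10 ± 0.08 (SE), with 5.98 ± 0.12 in induced and 5.88 ± 0.06 in uninduced arrays (SD, n = 3 each). Both differences were smaller than 2 standard errors. The median difference was -0.02 over the members, against -0.00 over all probe sets.

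Within single clones the differences lay between -0.36, for Dazl probe set 1449502_at in A3, and 0.21, for Hormad1 in A4. The sign was the same in all 3 clones for 1 of 10 probe sets, Dazl 1419542_at, with differences of -0.22, -0.03 and -0.07 in clones A3, A4 and A5. Over all probe sets 14.0% were lower in all 3 clones and 12.2% were higher in all 3. The other 9 did not share a sign across clones.

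The precision sets what could have been seen. The 95% intervals of the 10 differences reached at most from -0.56 to 0.59, both for Tdrd12, a 1.51-fold difference. With the clone as a block they reached at most from -0.32 to 0.27, a 1.25-fold difference. Other intervals were narrower, such as -0.09 to 0.29 for Hormad1, -0.27 to 0.13 for Taf7l and -0.23 to 0.17 for Tex101 without the block. Nothing says that the induced and the uninduced culture of a clone were repeated. Without the block, p-values thus set the difference against the spread between clones within each condition. With the block, they set it against the spread of the within-clone differences.

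**Figure D3:**
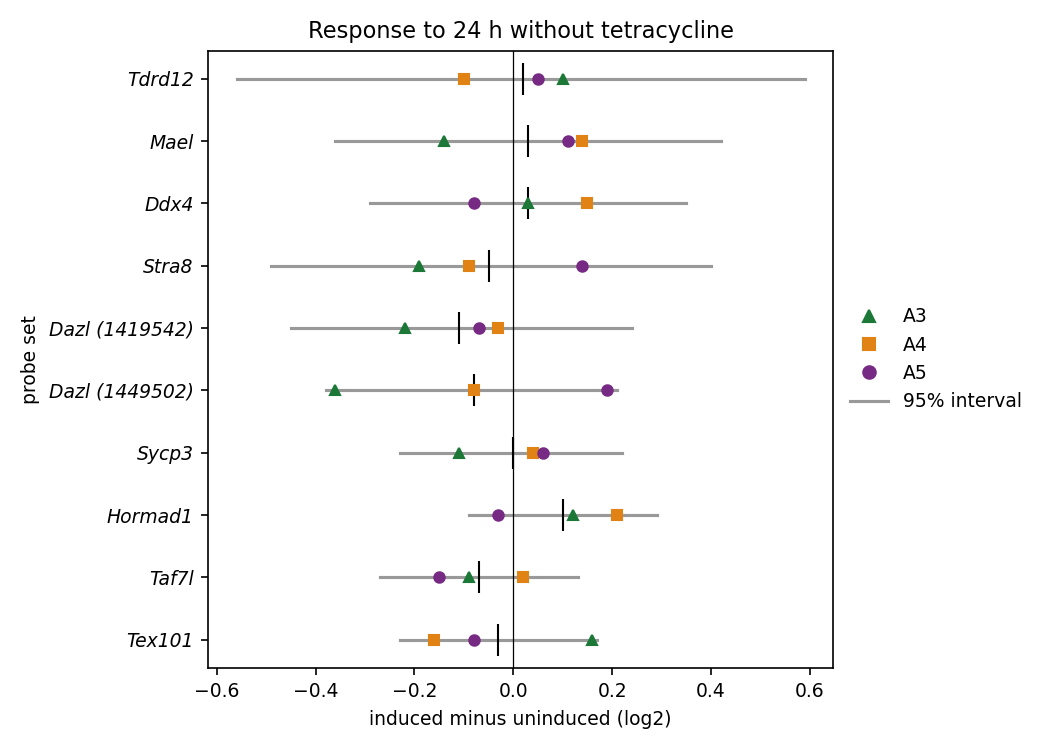
Induced minus uninduced log2 expression (x axis) of the 10 probe sets (y axis) in clones A3, A4 and A5 (symbols). Black ticks are means and grey lines 95% intervals from limma without a block. All intervals include 0, and the widest, that of Tdrd12, runs from -0.56 to 0.59.

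The second comparison asked whether the clones differed. With induction held in the model, limma's F-test of the clone term was past an adjusted p of 0.05 for 2 of 10 member probe sets, Tdrd12 and Stra8, against 2.18% of all probe sets (980 of 45037). The median range between the highest and the lowest clone mean was 0.34 over the members, against 0.14 over all probe sets and 0.15 over those averaging 5 or more. Each clone is 2 arrays of 1 colony, so a difference is one between these clones.

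Tdrd12 had the widest range, 0.81, which is 1.76-fold (adjusted p = 0.00779, limma F-test). The means of clones A3, A4 and A5 were 9.22, 8.56 and 8.40. A3 minus A4 was 0.66 ± 0.09 (SE, adjusted p = 0.00924) and A3 minus A5 was 0.81 ± 0.09 (SE, adjusted p = 0.00577). Without both A3 arrays the range was 0.15 (adjusted p = 0.795), and without the induced A3 array alone it was 0.75 (adjusted p = 0.0807, limma F-test).

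Stra8 ran the other way. The means of clones A3, A4 and A5 were 7.07, 7.51 and 7.69, a range of 0.62 or 1.53-fold (adjusted p = 0.0407, limma F-test). A3 minus A5 was -0.62 ± 0.10 (SE, adjusted p = 0.025), and A3 minus A4 was -0.43 ± 0.10 (SE, adjusted p = 0.067). When 1 array was left out, the range of Stra8 was 0.48 to 0.76, and the adjusted p passed the threshold in 1 of 6 cases and was up to 0.273 in the others. Without both A3 arrays its range was 0.18 (adjusted p = 0.756).

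Mael and Dazl had the same order of clones as Stra8 and lay close to the threshold. For Mael the A3, A4 and A5 means were 7.15, 7.54 and 7.67, and the F-test gave an adjusted p of 0.0675. For Dazl 1419542_at the A3, A4 and A5 means were 6.14, 6.43 and 6.61 (adjusted p = 0.0773, limma F-test). Taken as a pair of clones, A3 minus A5 was -0.52 in Mael (adjusted p = 0.0456) and -0.47 in Dazl 1419542_at (adjusted p = 0.0463). Dazl 1449502_at, the other probe set of the gene, gave -0.27 (adjusted p = 0.416).

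By pairs of clones, 4 of 10 member probe sets passed between A3 and A5, against 1.68% of all probe sets. Tdrd12 was higher in A3, and Stra8, Mael and Dazl 1419542_at were lower. Between A3 and A4, 1 of 10 passed (Tdrd12), against 2.94%. Between A4 and A5, 0 of 10 passed, against 0.0511% of all probe sets. The count of 4 was 2 after centring the arrays on their medians and 1 to 3 when 1 array was left out, with a count of 1 without the induced A3 or the induced A5 array.

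The count of 2 in the F-test differed between settings. With a variance prior that follows intensity, 5 of 10 member probe sets passed, against 5.86% of all, and among probe sets averaging 5 or more, 5 passed, against 8.24% of the 22874 tested. In both cases the 5 were Tdrd12, Stra8, Mael, Ddx4 and Dazl 1419542_at. For Ddx4 the A3, A4 and A5 means were 7.89, 7.78 and 8.19, and A4 minus A5 was -0.41 (adjusted p = 0.496). In the F-test without these settings Ddx4 had an adjusted p of 0.119.

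The remaining members showed no clone difference past the threshold. Sycp3 had a range of 0.25 (adjusted p = 0.358), Taf7l one of 0.19 (adjusted p = 0.483), Hormad1 one of 0.15 (adjusted p = 0.649) and Tex101 one of 0.13 (adjusted p = 0.761, limma F-test). The intervals of A3 minus A5 were -0.37 to 0.03 for Sycp3, -0.17 to 0.23 for Taf7l, -0.25 to 0.17 for Hormad1 and -0.11 to 0.36 for Tex101.

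Described by order alone, both A3 arrays were below the other 4 in 3 of 10 member probe sets (Stra8, Mael and Dazl 1419542_at), as in 13.5% of all probe sets. They were above the other 4 in 1 of 10 (Tdrd12), as in 12.1% of all. Both A5 arrays were above the other 4 in 5 of 10 (Stra8, Mael, Dazl 1419542_at, Ddx4 and Sycp3), against 6.69% of all.

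The further germ line genes were compared between clones in the same fit. In the list of further germ line genes, 11 of 22 probe sets, of 11 genes, were lowest in both A3 arrays and 0 were highest there, against 13.5% and 12.1% of all probe sets. Of these 11 genes, Tex11, Brdt, Smc1b, Slc25a31, Tdrkh and Hormad2 had means within the band of silent genes. The largest clone range was in Cyct, the testis form of cytochrome c, with 7.11, 7.76 and 7.50 in induced A3, A4 and A5, against 7.03, 7.88 and 7.33 uninduced (range 0.75, adjusted p = 0.018, limma F-test). It was the only 1 of the 22 probe sets past the threshold of the F-test. Between A3 and A4, 3 of 22 passed, against 2.94% of all probe sets: Cyct at -0.75 ± 0.10 (SE, adjusted p = 0.00718), Gpat2 at -0.51 ± 0.09 (SE, adjusted p = 0.0267) and Smc1b, a meiotic cohesin subunit, at -0.49 ± 0.09 (SE, adjusted p = 0.0234). Between A3 and A5, 2 of 22 passed, against 1.68% of all. Slc25a31, a mitochondrial nucleotide carrier of germ cells, was -0.58 ± 0.11 (SE, adjusted p = 0.0468) and Tdrkh, a piRNA pathway protein, -0.45 ± 0.09 (SE, adjusted p = 0.0473). Of 16 meiosis probe sets, 1 passed the F-test, against 2.18% of all probe sets. It was of Syce3 of the synaptonemal complex (range 0.68, adjusted p = 0.0164, limma F-test), lowest in A3. Its mean of 5.25 was within the band of silent genes. In this list both A3 arrays were below the other 4 in 4 of 16 and above them in 0, against 13.5% and 12.1% of all probe sets.

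**Figure D4:**
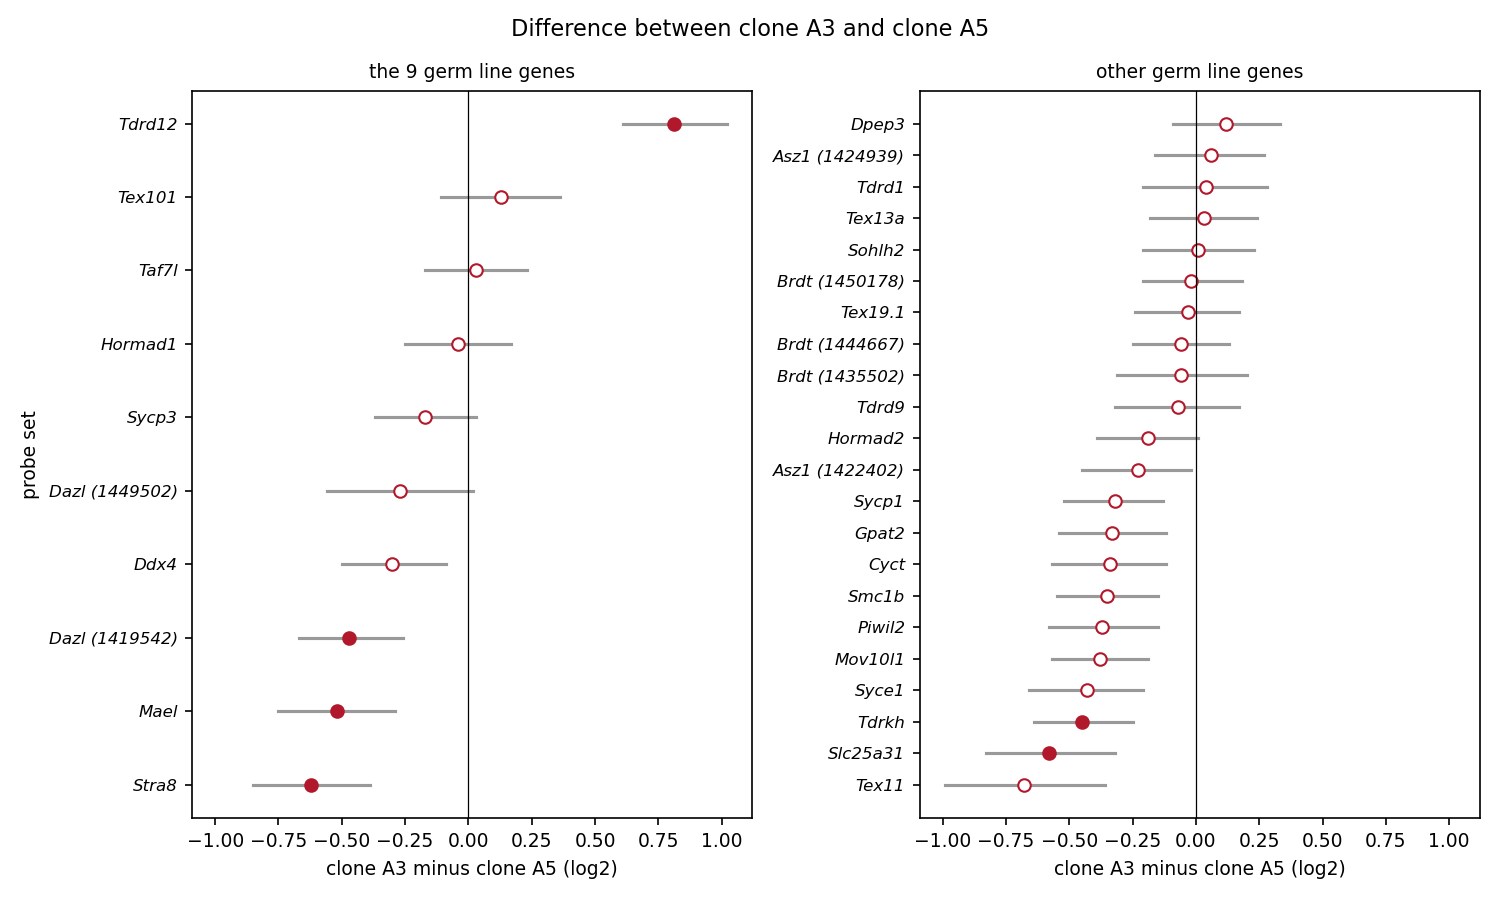
Clone A3 minus clone A5 in log2 expression (x axis) for each probe set (y axis) of the 9 germ line genes (left) and of the other germ line genes (right). Lines are 95% intervals, and filled points have an adjusted p under 0.05 in limma. Tdrd12 stands at 0.81, while Stra8, Mael and Dazl 1419542_at lie between -0.62 and -0.47.

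Genes of primordial germ cell specification held clone differences too. Of 10 probe sets of 7 genes, 6 passed the F-test, against 2.18% of all probe sets. They were of 4 genes, Dppa3, Prdm14, Kit and Tfap2c, the last with more than 1 probe set. The other probe set of Kit did not pass (1415900_a_at, adjusted p = 0.274, limma F-test). Dppa3, a maternal factor and germ cell marker that guards against changes in methylation, had 7.73, 8.86 and 8.14 in induced A3, A4 and A5, against 7.68, 8.97 and 8.12 uninduced (adjusted p = 0.00202). Tfap2c, a transcription factor of germ cell specification, had 8.31, 9.42 and 9.15 in induced A3, A4 and A5, against 8.32, 9.42 and 9.05 uninduced (probe set 1436392_s_at, adjusted p = 0.00233). By the brightest probe set of each gene, the mean of the list was 8.36 in both A3 arrays, against 8.59 to 8.95 in the other 4. The mean of the ES cell markers was 11.80 and 11.81 in A3 and 11.82 to 11.85 in the others.

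Among 19 probe sets of the DNA methylation machinery, 2 passed the F-test, against 2.18% of all probe sets, and both were highest in A3. The list as a whole had no single order. Both A3 arrays were above the other 4 in 4 of 19, against 12.1% of all, and below them in 1, against 13.5%. Both A5 arrays were above the other 4 in 5 of 19, against 6.69%. Dnmt3l, the cofactor of the de novo methyltransferases, had 12.49, 11.88 and 11.72 in induced A3, A4 and A5, against 12.47, 11.83 and 11.80 uninduced (range 0.72, adjusted p = 0.00965). Dnmt3b, a de novo methyltransferase, had 10.25, 9.79 and 9.55 in induced A3, A4 and A5, against 10.26, 9.74 and 9.72 uninduced (probe set 1418351_a_at, range 0.62, adjusted p = 0.0254). Its other probe set had a range of 0.47 (adjusted p = 0.0536). Dnmt1 and Uhrf1, which maintain methylation, had ranges of 0.04 to 0.20. Whether these levels bear on those of Stra8 and Tdrd12 was not tested.

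Of 27 probe sets of repressors of germ line promoters, including Mga, Max, E2f6 and Setdb1, 0 passed the F-test, and 6 had an unadjusted p under 0.05. Both A3 arrays were above the other 4 in 11 of 27, against 12.1% of all probe sets, and below them in 1, against 13.5%. Several of these 11 belong to the same gene, Kdm5c, and the rest to Mga, L3mbtl2, Setdb1 and Ehmt1. None of them is of Max or E2f6. The lowest adjusted p of the 27 was 0.14 (limma F-test), for Ehmt1, a histone methyltransferase. It had 10.17, 9.85 and 9.92 in induced A3, A4 and A5, against 10.23, 9.85 and 9.97 uninduced. In induction 0 probe sets of any of these lists passed in limma.

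One technical value also varied between arrays. The poly-A spikes, control RNAs added before labelling, read 6.91, 6.51 and 6.57 in induced A3, A4 and A5. In uninduced A3, A4 and A5 they read 6.58, 6.42 and 6.06. Each clone thus read higher when induced, and A3 read highest within each condition. Uninduced A3 stood barely above induced A5. The part of the spikes in the clone differences was not tested. Array medians lay between 5.03 and 5.06, and correlations between arrays between 0.996 and 0.998. The 3′ minus 5′ signal of Actb, a sign of RNA quality, was 0.31 and 0.35 in A3, against 0.27 to 0.36 in the others.

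Tdrd12 was the member with the widest clone range, and the genes most like it in pattern were read as a description. Over the 6 arrays, Pearson's r with Tdrd12 was highest for Fam25c (0.999), Raph1 (0.998), Bcl11a (0.997), Svil (0.996) and Suv39h2 (0.995) among 20441 single-symbol probe sets averaging 5 or more. 281 probe sets had an r of at least 0.95. The 6 points are 3 clones measured in pairs, so that a high r here mostly means higher in A3. For Bcl11a the A3, A4 and A5 means were 5.77, 5.00 and 4.81, whereas Suv39h2 differed by only 0.06 between clones.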

How the data were processed

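The authors hybridized total RNA to Affymetrix mouse whole-genome arrays and made the deposited log2 values with RMA (affy package, versions not given in the sources used here). The 45101 probe sets include 64 controls, and the other 45037 were tested without an intensity filter. Probe sets were named from the platform annotation, which can be old: 34945 have 1 symbol, 932 several and 9160 none. Columns were matched to samples by the labels, which give clone and condition. Induced and uninduced arrays were compared in limma 3.58.1 (R 4.3.3; lmFit and eBayes, two-sided, Benjamini-Hochberg over all 45037), after the methods' t-test, for which no pairing is stated, and clones by the F-test of the clone term with induction in the model. The number of arrays limits the precision.

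The clone pairs the arrays. After group means were taken out, the 2 arrays of a clone correlated over probe sets at 0.524 (A3), 0.376 (A4) and 0.21 (A5), against -0.407 to 0.0689 between clones. Alternatives were the clone as replicate block, the methods' t-test, an intensity-dependent variance prior, a mean of at least 5, median centring and leaving out each array. The members and lists were chosen with earlier results of these data known. Named were all members, list genes past the threshold or with the smallest p between clones, and the 5 genes most like the member with the widest clone range; other list genes were picked with their values known. The fits were tested on simulated data. Promoter windows are RefSeq's (GRCm38.p6).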

Additional observations from a re-analysis of the deposited data

How the results depend on the processing

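In induction the count of probe sets past the threshold was 0 in each setting run, among the members and over all probe sets, and the replicate block changed no call (0 with the clone block, 0 without). The sign of a member's difference is not settled: it turned in at least 1 of the 11 settings for 8 of the 10 probe sets, where the differences ran from -0.22 to 0.05 (Dazl 1419542_at), -0.24 to 0.04 (Dazl 1449502_at), -0.09 to 0.18 (Ddx4), -0.09 to 0.23 (Mael), -0.23 to 0.16 (Stra8), -0.09 to 0.05 (Sycp3), -0.25 to 0.24 (Tdrd12) and -0.10 to 0.02 (Tex101). Sycp3 was 0.01 after median centring. The induction fits with 1 array left out had no clone block. Their groups thus held unequal clones, and clone differences enter those values. Between clones, the 980 probe sets past the threshold were 2641 with the intensity-dependent prior, 1885 at a mean of at least 5 and 248 to 860 when 1 array was left out. The 2 members past it were 5 with that prior, 5 at a mean of at least 5 and 0 to 2 when 1 array was left out, with 0 without the induced A3 array. Leaving out both A3 arrays, chosen after seeing the data, gave 26 probe sets and 0 members. The 4 members past the threshold between A3 and A5, counted after seeing the data, were 2 after median centring and 1 to 3 when 1 array was left out. The cause of these shifts was not tested beyond the smaller number of arrays or probe sets. With 2 arrays per clone and no detection call, levels near the silent band and differences within the intervals could not be resolved.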

Other observations

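A few genes of the comparison lists also differed between clones. Fgf4, a growth factor secreted by ES cells, was higher in A3 by both of its brightest probe sets. Probe set 1420085_at had 10.16, 9.68 and 9.72 in induced A3, A4 and A5, against 10.17, 9.62 and 9.65 uninduced (range 0.51, adjusted p = 0.0287, limma F-test). Pdgfrb, a receptor of mesenchymal cells, had 3.96, 4.78 and 4.74 in induced A3, A4 and A5, against 3.89, 4.59 and 4.17 uninduced, within the range of silent genes (probe set 1436970_a_at, adjusted p = 0.0392). Ryr1, the calcium channel of skeletal muscle, had 5.60, 5.17 and 5.12 in induced A3, A4 and A5, against 5.73, 5.06 and 5.23 uninduced (probe set 1457347_at, adjusted p = 0.0393). These values are within the range of silent genes, whose list includes Ryr1, and its other probe set, 1427306_at, had a range of 0.30 (adjusted p = 0.184). Of the markers of 2-cell-like cells, 2 of 8 genes were measured, Eif1a and Tdpoz1, and neither passed in limma between clones or conditions.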
